A study of Mus musculus with 31 samples.

Results

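The Dusp and Sprouty genes described here are 10 genes whose products switch off MAP kinase signalling: Dusp1, Dusp2, Dusp4, Dusp5, Dusp6, Dusp10, Dusp14, Spry1, Spry2 and Spry4. They were chosen by gene name in the array annotation, which gave 1 probe for each gene, or 10 of 55681 probes. All 10 passed the filter on dim probes, Spry4 through a single group, and were among the 27056 genes tested. Uterine RNA came from ovariectomised mice, operated on at 4 weeks of age and rested for 3 weeks on normal chow, 6 h after an injection under the skin of castor oil with 0 (placebo, PLB) or 8 µg/kg of 17β-estradiol (E2). The 8 groups were AF2 WT PLB, AF2 WT E2, AF2 KO PLB and AF2 KO E2, labelled as C57BL6/J, and MISS WT PLB, MISS WT E2, MISS KO PLB and MISS KO E2, labelled as C57BL6/N. Each held 4 samples with 1 array each, except AF2 KO E2 with 3. From knowledge outside the labels, the mutants called AF2 KO carry an estrogen receptor α that lacks activation function 2, a surface for coactivator binding, and in those called MISS KO the receptor lacks its palmitoylation and does not reach the cell membrane. Every mouse of either mutant therefore still makes a form of the receptor, and all 8 groups lack ovaries.

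MAP kinases such as ERK, p38 and JNK are switched on by dual phosphorylation downstream of growth factor receptors, and they in turn raise the transcription of their own inhibitors. Dual-specificity phosphatases (Dusp genes) remove the activating phosphates from MAP kinases, and the members differ in which kinase they act on and whether they sit in the nucleus or the cytoplasm. Sprouty proteins (Spry genes) act further upstream, between receptor tyrosine kinases and ERK. In the uterus, estradiol raises growth factors such as IGF1 and starts a wave of immediate early transcription followed by proliferation of the epithelium, and ERK signalling is part of that response.

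Levels are log2 intensities relative to the 75th percentile of the array, so 0 is that percentile. They were compared between samples for the same probe and never between probes. The 75th percentile ranged from 474.7 to 918.4 in intensity. Between 61.8 and 77.1% of the probes on an array passed as well above background, with 0 saturated spots. The 10 uterus markers were well above background on all 31 arrays, as were 10 of 10 stroma, 10 of 10 smooth muscle, 12 of 12 epithelium and 10 of 13 lymphocyte markers. So were 10 of 10 endothelium, 10 of 10 macrophage and 5 of 7 granulocyte markers. Esr1, the gene targeted in both lines, had levels of 2.72 to 3.65 across the 31 arrays, and its probe checks neither mutation. It was 2.88 to 3.06 in AF2 KO PLB against 3.24 to 3.54 in AF2 WT PLB, without overlap. With E2 it was 2.80 to 3.04 in AF2 KO and 3.03 to 3.65 in AF2 WT. MISS KO and MISS WT overlapped, at 3.19 to 3.38 and 3.07 to 3.32 with placebo and 2.84 to 3.41 and 2.72 to 3.00 with E2. Whether the Esr1 level has a part in the responses was not tested. The arrays lay on 4 slides with 1 array of each group, except that slide 2 had none of AF2 KO E2, so slide and group could be separated. The array of MISS WT PLB on slide 2 stood apart from the others of its group. Its summed smooth muscle markers were 1370, against 622 to 750 on slides 1, 3 and 4, and its summed lymphocyte markers 20.6, against 8.93 to 12.4 (linear scale, relative to the 75th percentile).

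The probes lie, on mm9, on chromosome 17 at 26642526 to 26642536 for Dusp1 (an annotated stretch shorter than the probe), on chromosome 2 at 127163930 to 127163989 for Dusp2 and on chromosome 8 at 35882045 to 35882104 for Dusp4. Those of the ERK phosphatases lie on chromosome 19 at 53615682 to 53615741 for Dusp5 and on chromosome 10 at 98729985 to 98730044 for Dusp6. Dusp10 was read on chromosome 1 at 185898608 to 185898667 and Dusp14 on chromosome 11 at 83861916 to 83861975. Spry1 was read on chromosome 3 at 37543403 to 37543462 and Spry2 on chromosome 14 at 106291845 to 106291904. Exon and UTR annotation of mm9 was not used here. The Dusp5 probe was well above background on 25 of 31 arrays and the Spry4 probe on 9, and the other 8 probes on all 31.

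The sequences upstream of the start sites show which members carry the motifs of inducible transcription that are known for growth factor and cAMP signalling. RefSeq windows (GRCm38.p6) were at hand for 8 of the 10 genes, and the 250 bases before the start were searched on both strands for each motif. Shown are the 200 bases nearest the start for Dusp5 and Dusp1, which hold such motifs, and for Dusp6 and Spry1, which hold none of them and whose mRNA moved in opposite directions with E2. Capitals mark CArG boxes (CC, 6 bases of A or T, then GG, the core of the serum response element) and TGACG half-sites of the cAMP response element on either strand.
Dusp5 (chr19:53528945-53529144, plus strand): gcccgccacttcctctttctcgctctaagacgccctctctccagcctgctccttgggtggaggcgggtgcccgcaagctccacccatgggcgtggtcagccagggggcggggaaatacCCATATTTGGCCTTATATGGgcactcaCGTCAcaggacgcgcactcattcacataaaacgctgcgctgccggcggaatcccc
Dusp1 (chr17:26508473-26508672, minus strand): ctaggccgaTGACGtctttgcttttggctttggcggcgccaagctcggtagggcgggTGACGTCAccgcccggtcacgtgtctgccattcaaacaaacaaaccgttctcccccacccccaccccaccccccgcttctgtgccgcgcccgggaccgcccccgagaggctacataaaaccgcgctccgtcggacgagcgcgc
Dusp6 (chr10:99263031-99263230, plus strand): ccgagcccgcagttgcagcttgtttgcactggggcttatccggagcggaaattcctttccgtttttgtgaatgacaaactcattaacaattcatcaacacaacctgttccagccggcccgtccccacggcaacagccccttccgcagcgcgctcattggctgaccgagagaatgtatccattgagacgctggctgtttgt
Spry1 (chr3:37639747-37639946, plus strand): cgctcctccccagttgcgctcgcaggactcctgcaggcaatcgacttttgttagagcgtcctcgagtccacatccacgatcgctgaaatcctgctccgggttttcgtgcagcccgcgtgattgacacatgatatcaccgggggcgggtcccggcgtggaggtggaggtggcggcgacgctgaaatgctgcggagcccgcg
Dusp5 held a tandem of CArG boxes, CCATATTTGG from −82 to −73 and CCTTATATGG from −72 to −63 relative to the start, and a CArG box was present in 1.47% of 32851 windows. Dusp1 held a full cAMP response element, TGACGTCA, from −143 to −136, as did 1.55% of windows, and a further half-site from −191 to −187. TGACG half-sites were in Dusp1 and Dusp5 among the 8 genes, and in 17.8% of windows (the half-sites of the full element are counted among them). An AP-1 site (TGANTCA) and an ETS core (CCGGAAG) were in 0 of the 8 genes, against 6.75% and 6.91% of windows. A full estrogen response element (GGTCA and TGACC 3 bases apart) was in 0 of 8, against 0.0639%, and its GGTCA half-site was in Dusp1, Dusp2, Dusp5, Dusp6 and Dusp10, against 35.2%. These are matches of letters, and no binding was measured.

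Estradiol, 6 h after injection, moved all 10 genes in AF2 WT mice, and 0 of them passed the test in AF2 KO mice. In AF2 WT, 6 rose (Dusp1, Dusp2, Dusp5, Dusp6, Spry2 and Spry4) and 4 fell (Dusp4, Dusp10, Dusp14 and Spry1), at a Benjamini-Hochberg adjusted p under 0.05 in limma, where 27.6% of all genes tested were called higher and 30.1% lower. In AF2 KO, 0 of 10 were called by limma and 1 (Dusp5) had an unadjusted p under 0.05, against 3.13% of all genes called higher and 0.554% lower. Of the called genes 84.9% were thus higher, and 71.4% with quantile normalization and 73.9% in the series matrix of the authors. In MISS WT, 6 rose and 3 fell, beside 35.1% and 27.1% of all genes, and without the array that stood apart 10 were called. In MISS KO, 5 rose and 3 fell, beside 30.1% and 27.2%. The median change of the 10 genes was 0.84, −0.10, 0.75 and 0.49 in these 4 comparisons, against −0.07, 0.04, 0.16 and 0.03 over all genes. Another scaling moved the median over all genes from −0.07 to 0.07 in AF2 WT (median scaling) and from 0.16 to 0.04 in MISS WT (series matrix). Arrays of the groups did not overlap for 9, 1, 9 and 7 of the 10 genes, as for 49.6%, 16.6%, 54.8% and 53.1% of all genes tested. Because whole uterus was measured, fewer cells of a type and less RNA per cell cannot be told apart.

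**Figure D1:**
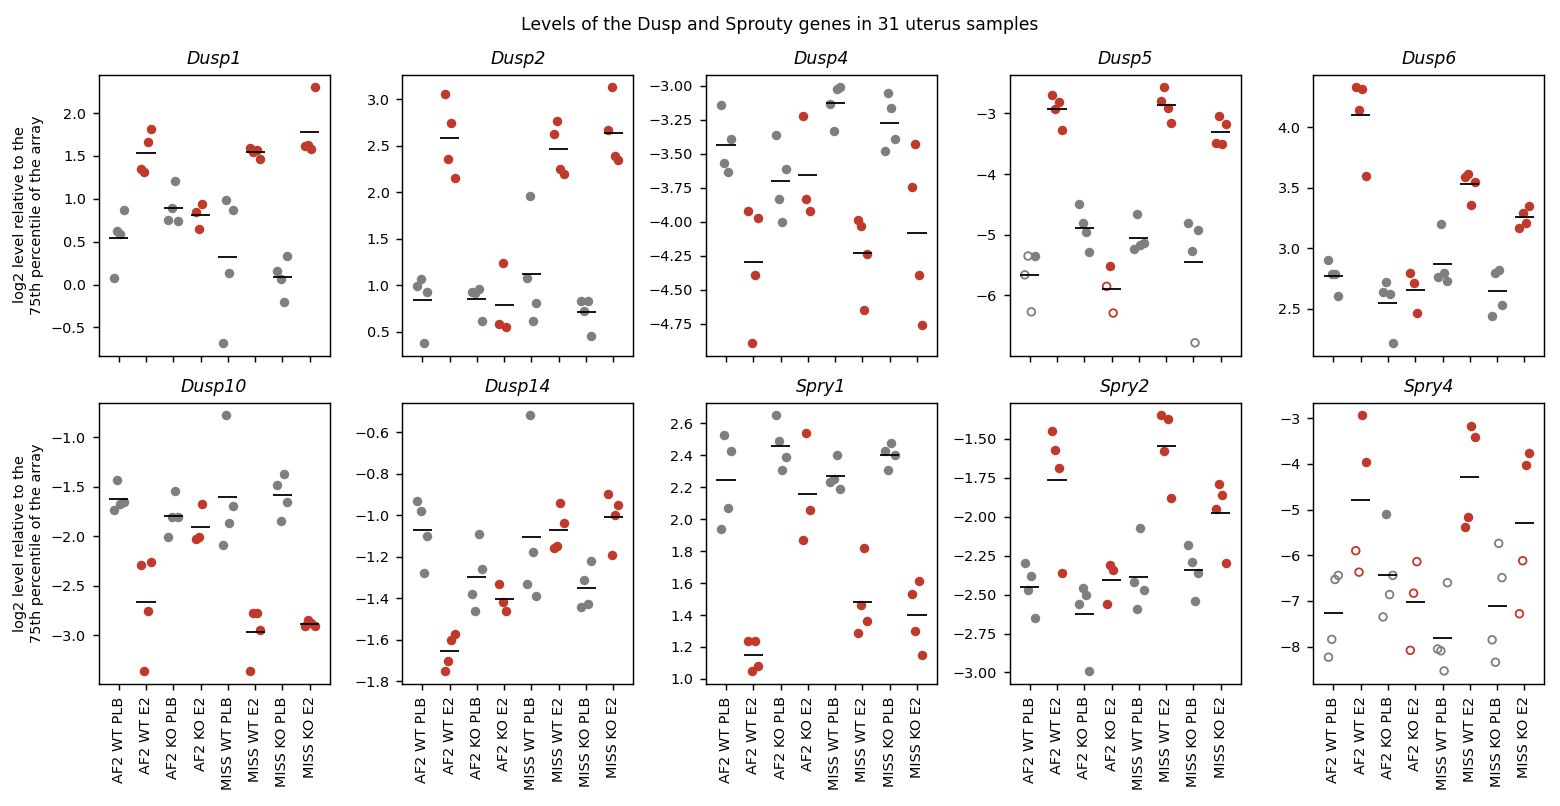
Level of each gene on every array (y axis, log2 relative to the 75th percentile of the array, with a scale of its own in each panel) in the 8 groups (x axis). Points are arrays, grey for placebo and red for E2, open where the probe was not well above background, and bars are group means. The AF2 KO E2 arrays overlap those of AF2 KO PLB for 9 of the genes, and for Dusp5 they lie below those of their own placebo group.

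Dusp5, a nuclear phosphatase specific for ERK, rose in AF2 WT and in both genotypes of the MISS line. In AF2 WT PLB its levels were −5.66, −5.35, −6.27 and −5.35 on slides 1 to 4, and 1 of these 4 arrays was well above background. In AF2 WT E2 they were −2.69, −2.92, −2.82 and −3.28, so every E2 array lay above every placebo array. The rise was 2.72 ± 0.30 (log2, SE, n = 4 and 4), adjusted p = 1.19e-08, and 2.07 to 3.45 within the slides. Since 3 of the 4 placebo values are not well above background, the size of this rise is uncertain and no fold is given. AF2 KO PLB arrays had −4.50, −4.80, −4.95 and −5.29, and AF2 KO E2 arrays −5.85, −5.52 and −6.29 on slides 1, 3 and 4, of which 1 of 3 was well above background. The measured values did not overlap, with E2 lower, but the fitted change of −1.0 ± 0.32 (SE, n = 3 and 4) was not called, adjusted p = 0.0857. With quantile normalization between arrays it was −1.53 and called, adjusted p = 0.00951. In MISS WT Dusp5 rose from −5.23, −4.65, −5.17 and −5.13 to −2.79, −2.57, −2.91 and −3.15, a change of 2.19 ± 0.30 (SE), adjusted p = 4.03e-07. In MISS KO, where 3 of 4 placebo arrays were well above background, it rose from −4.81, −5.26, −6.78 and −4.92 to −3.49, −3.05, −3.51 and −3.17, a change of 2.14 ± 0.30 (SE), adjusted p = 6.81e-07. The size of all 3 rises depended on the processing, though each stayed called. Across the ways of processing tried they ran from 0.84 to 3.16 in AF2 WT, 1.05 to 2.28 in MISS WT and 0.76 to 2.23 in MISS KO. The mean levels under E2 in the 3 responding genotypes were −2.93, −2.85 and −3.31, and neighbouring groups overlapped.

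Dusp6, the cytoplasmic phosphatase specific for ERK and a widely used readout of ERK activity, rose in the same 3 genotypes. Its levels went from 2.90, 2.79, 2.79 and 2.61 to 4.33, 4.14, 4.32 and 3.60 in AF2 WT, a change of 1.33 ± 0.14 (SE), or 2.51-fold, adjusted p = 7.15e-09. In AF2 KO they were 2.64, 2.72, 2.62 and 2.22 with placebo and 2.80, 2.71 and 2.47 with E2, which overlap, and the change of 0.11 ± 0.15 (SE) was not called. The MISS line gave smaller rises. MISS WT went from 2.76, 3.20, 2.80 and 2.73 to 3.59, 3.61, 3.36 and 3.55, a change of 0.66 ± 0.14 (SE), or 1.58-fold, adjusted p = 0.000231. This call was lost with quantile normalization, at 0.22 and adjusted p = 0.111, and in the series matrix of the authors, at 0.20 and adjusted p = 0.124. MISS KO went from 2.44, 2.80, 2.82 and 2.53 to 3.17, 3.29, 3.21 and 3.35, a change of 0.61 ± 0.14 (SE), adjusted p = 0.00054. The 4 AF2 WT E2 arrays had the highest mean of all groups, 4.10, and the MISS WT E2 mean was 0.57 below it, with 1 AF2 WT E2 array inside the MISS WT E2 range.

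The inducible nuclear phosphatases Dusp1 and Dusp2 rose. Dusp1 is an immediate early gene whose product acts on p38, JNK and ERK. Its levels rose from 0.08, 0.62, 0.59 and 0.87 to 1.35, 1.31, 1.66 and 1.81 in AF2 WT, by 0.99 ± 0.25 (SE), adjusted p = 0.00118. AF2 KO arrays overlapped, at 0.75, 0.89, 1.21 and 0.74 with placebo and 0.85, 0.65 and 0.94 with E2. In MISS WT the placebo arrays were spread widely, at −0.68, 0.98, 0.13 and 0.87, while the E2 arrays lay close together, at 1.59, 1.55, 1.57 and 1.46. The rise there was 1.22 ± 0.25 (SE), adjusted p = 0.000111. MISS KO arrays rose from 0.16, 0.07, −0.20 and 0.33 to 1.62, 1.63, 1.58 and 2.30, by 1.70 ± 0.25 (SE), adjusted p = 1.21e-06. No placebo array of any of these 3 genotypes reached the lowest E2 array of its own genotype.

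Dusp2, a nuclear phosphatase best known from activated immune cells, rose from 0.99, 1.07, 0.38 and 0.93 to 3.06, 2.36, 2.75 and 2.15 in AF2 WT, by 1.74 ± 0.25 (SE), or 3.33-fold, adjusted p = 8.47e-07. In AF2 KO it was 0.93, 0.92, 0.96 and 0.61 with placebo and 0.58, 1.24 and 0.55 with E2, a change of −0.07 ± 0.27 (SE). MISS WT rose from 1.08, 1.96, 0.62 and 0.81 to 2.63, 2.77, 2.25 and 2.20, by 1.35 ± 0.25 (SE), adjusted p = 3.06e-05. The highest placebo value is that of the array that stood apart, and without it the rise was 1.63. MISS KO rose from 0.83, 0.72, 0.83 and 0.45 to 2.67, 3.13, 2.39 and 2.35, by 1.93 ± 0.25 (SE), adjusted p = 1.43e-07. Of the 13 lymphocyte markers, 1 rose and 1 fell with E2 in AF2 WT, 0 rose and 8 fell in MISS WT, and 0 rose and 4 fell in MISS KO. Their summed level was 6.07 to 7.85 in AF2 WT PLB against 7.0 to 7.40 in AF2 WT E2, and 8.93 to 20.6 in MISS WT PLB against 7.47 to 8.51 in MISS WT E2. In MISS KO it was 7.01 to 12.2 against 6.41 to 9.27. Across the 31 arrays, which share the 8 groups, Pearson's r of Dusp2 with the mean log2 level of these markers was −0.11, and within groups it was 0.70. Of 7 granulocyte markers 3 rose and 0 fell in AF2 WT, 3 rose and 1 fell in MISS WT and 2 rose and 0 fell in MISS KO, with summed levels of 211 to 283 and 227 to 280, 174 to 198 and 195 to 248, and 189 to 227 and 201 to 225 (placebo and E2). Of the granulocyte markers, Cxcr2 was well above background on 11 of 31 arrays and Mpo on 18, and both enter their mean log2 level. Dusp2 had r of 0.79 with that mean over the arrays and 0.50 within groups, and 0.09 and 0.69 with the mean of 10 macrophage markers. Such values were not particular to immune cells. Smooth muscle markers gave 0.71 and 0.61, and stroma markers −0.66 and 0.57. Within groups, endothelium, epithelium and uterus markers gave 0.47, 0.27 and 0.03. The MISS WT PLB array that stood apart was the highest of its group in Dusp2 and in the lymphocyte, granulocyte, macrophage, smooth muscle and stroma means. It therefore weighs on these values within groups. Dusp2 was also lower on slides 3 and 4 than on slides 1 and 2 in 4 of the 7 groups with 4 slides. The values of r within groups, here and below, were not adjusted for slide. The part of these cell types in the Dusp2 changes was not tested.

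Dusp4, a nuclear phosphatase of ERK and JNK and close relative of Dusp1, went the other way. Its levels fell from −3.14, −3.57, −3.63 and −3.39 to −3.92, −4.89, −4.39 and −3.97 in AF2 WT, a change of −0.86 ± 0.24 (SE), adjusted p = 0.00319. MISS WT arrays fell from −3.13, −3.33, −3.02 and −3.01 to −3.99, −4.03, −4.65 and −4.24, a change of −1.10 ± 0.24 (SE), adjusted p = 0.000269. In MISS KO the change was −0.80 ± 0.24 (SE), adjusted p = 0.00544, and the groups overlapped, since E2 arrays ranged from −4.76 to −3.43 and placebo arrays from −3.48 to −3.05. These 3 falls were smaller in some of the other ways of processing, down to −0.32 in AF2 WT, −0.34 in MISS WT and −0.31 in MISS KO. They stayed called throughout, with the highest adjusted p at 0.0435, 0.0256 and 0.0469. AF2 KO arrays ranged from −4.00 to −3.36 with placebo and from −3.92 to −3.22 with E2.

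Dusp10, a phosphatase of p38 and JNK, fell as well. In AF2 WT its levels were −1.74, −1.43, −1.67 and −1.65 with placebo and −2.29, −3.36, −2.76 and −2.26 with E2, a change of −1.05 ± 0.22 (SE), adjusted p = 0.000212. It fell by 1.36 in MISS WT (SE 0.22, adjusted p = 6.31e-06) and by 1.30 in MISS KO (SE 0.22, adjusted p = 1.36e-05), where the E2 arrays lay within −2.91 to −2.85. AF2 KO arrays overlapped, with −2.01 to −1.54 under placebo and −2.03 to −1.67 under E2. Epithelium markers moved in the same comparisons, with 6 of 12 higher and 1 lower in AF2 WT, 5 and 3 in MISS WT and 6 and 0 in MISS KO, and limma called 0 in AF2 KO. Their summed level was 148 to 192 in AF2 WT PLB and 176 to 226 in AF2 WT E2, 149 to 180 and 183 to 219 in MISS WT, 151 to 190 and 152 to 215 in MISS KO, and 216 to 276 and 250 to 322 in AF2 KO. Over the 31 arrays r with their mean log2 level was largest in size for Dusp1 (0.73) and Dusp4 (−0.70), and within groups these gave 0.02 and −0.08. Dusp10 gave −0.63 and −0.06. Its r with stroma markers was 0.72 and 0.35, and with uterus markers −0.72 and −0.31 (over the arrays and within groups). The part of the epithelium in these changes was not tested. The decrease of Dusp4 and Dusp10 and the rise of Dusp1, Dusp2, Dusp5 and Dusp6 were found on each of the 4 slides in AF2 WT, MISS WT and MISS KO.

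Dusp14, a small atypical phosphatase without the kinase-binding domain of the other 6, fell with E2 in AF2 WT, rose in MISS KO and was not called in AF2 KO and MISS WT. In AF2 WT it fell from −0.93, −0.98, −1.28 and −1.10 to −1.75, −1.70, −1.60 and −1.57, a change of −0.58 ± 0.13 (SE), adjusted p = 0.000407. In MISS WT it was −1.33, −0.52, −1.18 and −1.39 with placebo and −1.16, −1.15, −0.94 and −1.04 with E2, a change of 0.03 ± 0.13 (SE), adjusted p = 0.837. The high placebo array is again the one that stood apart. Without it the change was 0.23, adjusted p = 0.0498. In MISS KO it rose from −1.44, −1.31, −1.43 and −1.22 to −0.90, −1.19, −1.0 and −0.95, by 0.34 ± 0.13 (SE), adjusted p = 0.0286, a call that was kept in 3 of the 8 fits with an array of MISS KO left out. It was lost without MISS KO PLB replicate 1 or 3 or MISS KO E2 replicate 1, 3 or 4, at 0.30 to 0.34 and adjusted p = 0.0512 to 0.0776. AF2 KO gave −0.11 ± 0.14 (SE), not called.

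Of the Sprouty genes, Spry1 fell and Spry2 rose. Spry1 levels in AF2 WT were 1.94, 2.53, 2.07 and 2.43 with placebo and 1.24, 1.05, 1.24 and 1.08 with E2, a change of −1.09 ± 0.14 (SE), or 2.13-fold lower, adjusted p = 1.89e-07. MISS WT went from 2.23, 2.25, 2.40 and 2.19 to 1.29, 1.46, 1.82 and 1.36, a change of −0.79 ± 0.14 (SE), adjusted p = 2.34e-05. MISS KO went from 2.43, 2.31, 2.48 and 2.40 to 1.53, 1.30, 1.61 and 1.15, a change of −1.01 ± 0.14 (SE), adjusted p = 6.43e-07. In these 3 genotypes no E2 array reached a placebo array. In AF2 KO the placebo arrays had 2.65, 2.49, 2.31 and 2.39 and the E2 arrays 1.87, 2.54 and 2.06, and the change of −0.31 ± 0.15 (SE), adjusted p = 0.301, was not called. Stroma markers fell in the same direction: 8 of 10 were called lower in AF2 WT, 4 in MISS WT and 5 in MISS KO, where 1 was called higher, and 2 in AF2 KO. Their summed level was 570 to 686 in AF2 WT PLB and 324 to 416 in AF2 WT E2, 614 to 833 and 389 to 438 in MISS WT, 612 to 759 and 353 to 511 in MISS KO, and 666 to 825 and 532 to 580 in AF2 KO. Whether these markers have a part in the fall of Spry1 was not tested. Across the 31 arrays r of Spry1 with their mean log2 level was 0.84, and within groups 0.17. This was not particular to Spry1. Over the arrays r was −0.78 for Dusp6, 0.72 for Dusp10 and −0.72 for Spry2, and the smallest in size was 0.32, for Dusp14.

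Spry2 rose by 0.68 ± 0.17 (SE) in AF2 WT, adjusted p = 0.001, from −2.30, −2.47, −2.38 and −2.65 to −1.45, −1.57, −1.69 and −2.36, and the lowest E2 array overlapped with placebo. In MISS WT it rose by 0.84 ± 0.17 (SE), adjusted p = 9.76e-05, from −2.42, −2.59, −2.07 and −2.47 to −1.35, −1.58, −1.37 and −1.88. The change in MISS KO, 0.37 ± 0.17 (SE), was not called, adjusted p = 0.0625. It passed the threshold with slide as a block (adjusted p = 0.019), with quantile normalization (0.46, adjusted p = 0.017), median scaling (0.47, adjusted p = 0.0192) and in the matrix of the authors (0.36, adjusted p = 0.0254). AF2 KO gave 0.22 ± 0.18 (SE), not called.

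Spry4, read on chromosome 18 at 38745923 to 38745982 (mm9), was near the background of the arrays, and the size of its changes is uncertain. In AF2 WT PLB, MISS WT PLB and MISS KO PLB no array was well above background, while 2 of 4, 4 of 4 and 2 of 4 arrays were with E2. Spry4 passed the filter on dim probes only through MISS WT E2, the group with its highest mean. Its rise in MISS WT is therefore not independent of that filter. Levels under E2 were −5.90, −6.37, −2.94 and −3.96 in AF2 WT, −5.39, −5.17, −3.17 and −3.41 in MISS WT, and −7.28, −6.12, −4.03 and −3.77 in MISS KO. They were higher on slides 3 and 4 than on slides 1 and 2 in each of these groups, and in 5 of the 7 groups with 4 slides. The fitted rise was called by limma in AF2 WT (adjusted p = 0.012) and MISS WT (adjusted p = 0.000535). Against placebo arrays raised to a floor, the mean E2 level was 1.88-fold and 3.55-fold higher. The floor of an array was its lowest signal well above background, or the probe's own value where that was higher. In AF2 WT and MISS KO the E2 mean includes arrays that were not well above background. These folds are not lower bounds. Across the ways of processing tried, the fitted log2 change ran from 0.56 to 2.77 in AF2 WT and from 1.03 to 3.62 in MISS WT. Without AF2 WT E2 replicate 3 the AF2 WT call was lost, at a fitted 1.85 and adjusted p = 0.0665. For MISS KO the mean E2 level was 1.74-fold higher than placebo arrays raised to that floor, which is no lower bound either. The fitted log2 change of 1.81 in MISS KO was not called (adjusted p = 0.0631), and the arrays overlapped. It was called with median scaling (adjusted p = 0.0476), normexp (0.49, adjusted p = 0.0398) and slide as a block (adjusted p = 0.00741). With the block the changes were also called in AF2 WT and MISS WT (adjusted p = 0.000534 and 7.03e-06). In AF2 KO, 1 of 4 placebo arrays and 0 of 3 E2 arrays were well above background.

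**Figure D2:**
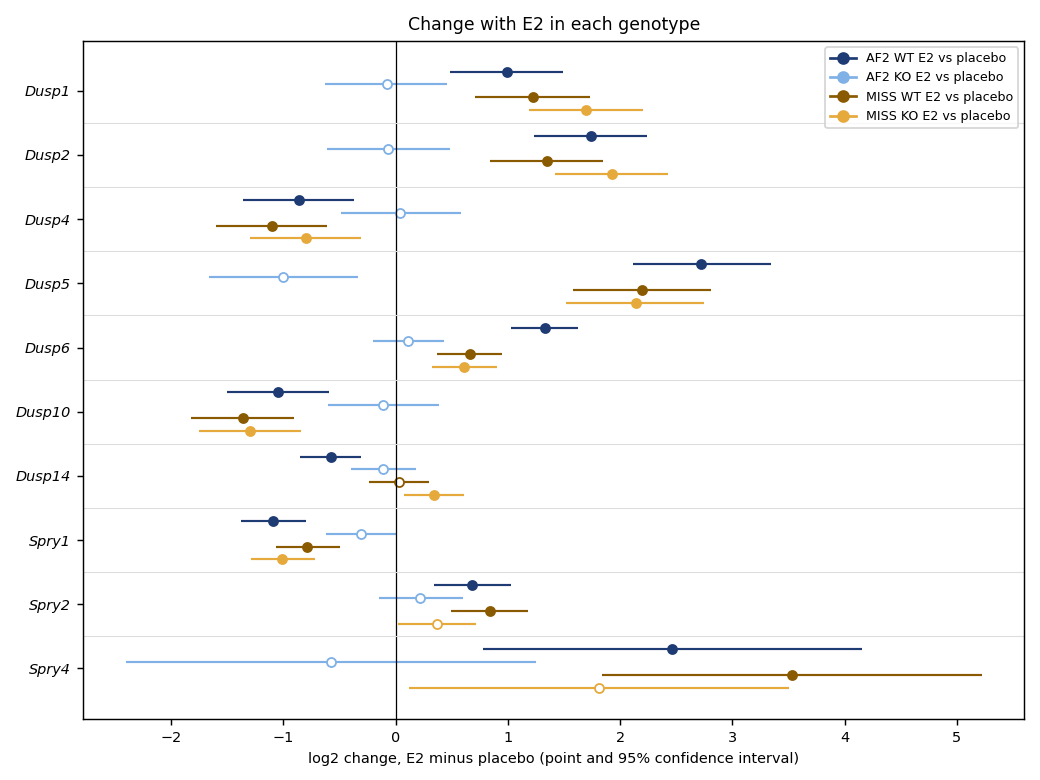
Change of each gene with E2 (x axis, log2 of E2 minus placebo, with 95% confidence interval) in AF2 WT, AF2 KO, MISS WT and MISS KO. Filled points were called at an adjusted p under 0.05. The AF2 KO points lie near 0 for 8 genes, with intervals inside a 2-fold change either way, while the other 3 genotypes lie on the same side of 0 for every gene except Dusp14.

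Subtracting the AF2 WT response from that of AF2 KO, which asks how much of the E2 effect needs activation function 2, gave a difference that was called for 9 of the 10 genes. It was negative for the genes that rose in AF2 WT, at −3.72 ± 0.44 for Dusp5 (SE, adjusted p = 9.44e-08), −1.80 ± 0.36 for Dusp2 (0.000156), −1.21 ± 0.21 for Dusp6 (2.3e-05) and −1.07 ± 0.36 for Dusp1 (0.0153). Among the genes that fell in AF2 WT it was positive, at 0.78 ± 0.21 for Spry1 (adjusted p = 0.00243), 0.94 ± 0.33 for Dusp10 (0.0178), 0.91 ± 0.35 for Dusp4 (0.034) and 0.47 ± 0.19 for Dusp14 (0.042). In all, 4 differences were called higher and 5 lower, beside 29% and 22.9% of all genes. The split of these calls over all genes depends on the scaling, with 55.8% of called genes higher here and 44.1% when arrays were scaled to their median. The median difference over all genes was 0.18, so Dusp10, Dusp4 and Dusp14 lay 0.76, 0.73 and 0.29 above it. These 3 calls were lost with quantile normalization, at adjusted p = 0.0752, 0.26 and 0.207, with median scaling, at 0.0612, 0.0934 and 0.262, and in the matrix of the authors, at 0.0532, 0.199 and 0.244. The calls of Dusp1, Dusp2, Dusp5, Dusp6 and Spry1 were kept in each of the 15 fits that left out 1 array of the AF2 line, those of Dusp10, Dusp4, Spry4 and Dusp14 in 13, 9, 7 and 6. Dusp10 was lost without AF2 WT E2 replicate 2, at 0.71 and adjusted p = 0.0509, and without AF2 KO E2 replicate 3, at 0.83 and adjusted p = 0.0534. Dusp4 was lost without AF2 WT PLB replicate 1, AF2 WT E2 replicate 2 or 3, AF2 KO PLB replicate 2 or 3 or AF2 KO E2 replicate 1, at 0.69 to 0.87 and adjusted p = 0.054 to 0.129. Dusp14 was lost without AF2 WT PLB, AF2 WT E2 or AF2 KO PLB replicate 1 or 2 or any AF2 KO E2 array, at 0.42 to 0.50 and adjusted p = 0.0505 to 0.0904.

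Spry2 and Spry4 were the least certain of these differences. For Spry2 it was −0.46 ± 0.25 (SE), with a 95% confidence interval of −0.97 to 0.05 and adjusted p = 0.122. It was called with quantile normalization (−0.76, adjusted p = 0.0103), median scaling (−0.65, adjusted p = 0.031), the matrix of the authors (−0.61, adjusted p = 0.0118) and without AF2 WT E2 replicate 4 (−0.66, adjusted p = 0.0123). For Spry4 the fitted difference of −3.04 ± 1.21 (SE, adjusted p = 0.0372) rests on 15 arrays of which 3 were well above background for its probe. With normexp background correction it was −0.44 and not called, adjusted p = 0.212. It was also lost without AF2 WT PLB replicate 1 or 2, AF2 WT E2 replicate 3 or 4, AF2 KO PLB replicate 2 or 4 or AF2 KO E2 replicate 1 or 2, at −3.14 to −2.43 and adjusted p = 0.0503 to 0.114. Within slides 1, 3 and 4 the differences of Dusp1, Dusp2, Dusp5, Dusp6 and Spry4 were negative on each and those of Dusp4 and Dusp10 positive on each. Spry1 gave −0.08 on slide 1 and up to 1.06 on the others, Dusp14 gave −0.01 on slide 3 and up to 0.86, and Spry2 gave 0.36 on slide 4 and −0.85 and −0.50 on slides 1 and 3. The size of the Dusp5 difference is uncertain, since 1 of 4 AF2 WT PLB and 1 of 3 AF2 KO E2 arrays were well above background. Across the ways of processing tried it ran from −4.69 to −0.81 and stayed called.

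**Figure D3:**
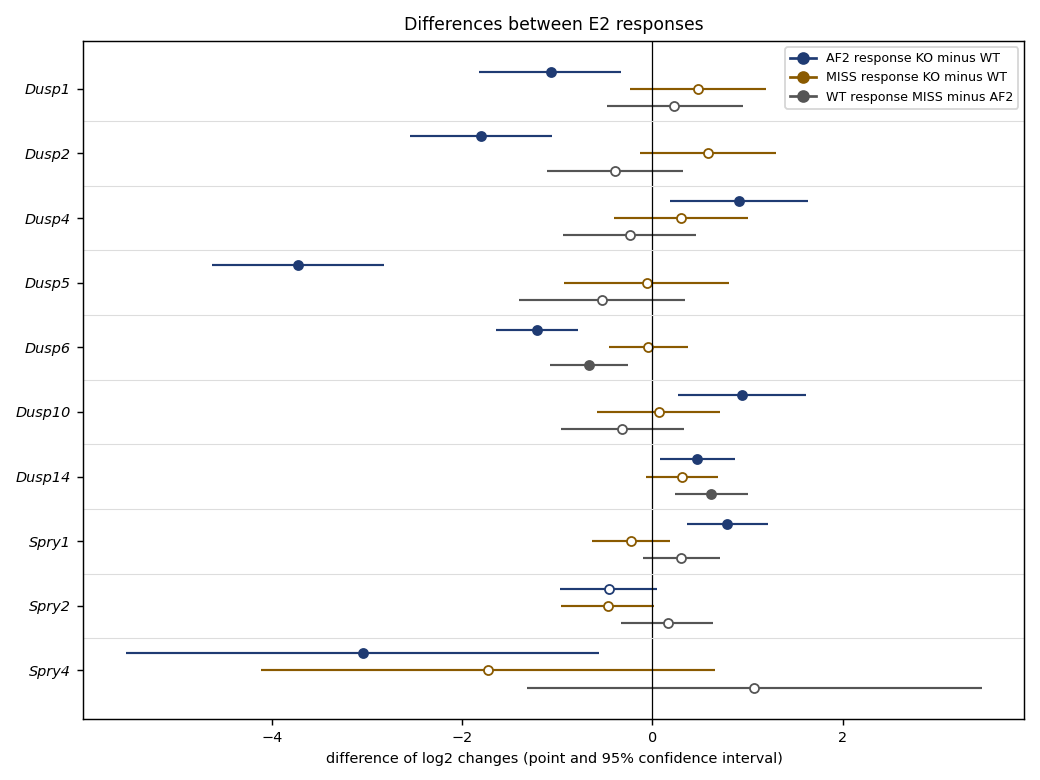
Differences between E2 responses (x axis, difference of log2 changes with 95% confidence interval): AF2 KO minus AF2 WT, MISS KO minus MISS WT, and MISS WT minus AF2 WT. Filled points were called at an adjusted p under 0.05, which holds for 9, 0 and 2 of the 10 genes.

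The same difference in the MISS line, which asks whether the response needs the receptor at the membrane, was called for 0 of 10 genes by limma, with 0 at an unadjusted p under 0.05. Over all genes 0.244% were called higher and 0.654% lower, so that 27.2% of the called genes were higher, and 37.2% with quantile normalization. The response of Dusp6 differed by −0.05 (95% confidence interval −0.46 to 0.37), that of Dusp5 by −0.06 (−0.93 to 0.81), that of Dusp10 by 0.07 (−0.58 to 0.71) and that of Spry1 by −0.22 (−0.63 to 0.19). For 6 of the 10 genes, these 4 with Dusp14 and Spry2, the interval lay inside a 2-fold difference either way. The interval of Spry2 ran from −0.96 to 0.02, with a negative difference on each of the 4 slides, and that of Dusp14 from −0.07 to 0.69. Dusp1 and Dusp2 gave 0.48 (−0.24 to 1.19) and 0.58 (−0.13 to 1.30), with wider intervals that reach past 2-fold. Dusp4 gave 0.30 (−0.40 to 1.0), and Spry4, near background, −1.73 (−4.11 to 0.66).

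Between the wild types of the lines, which also differ in substrain, the E2 responses of Dusp6 and Dusp14 were called different. The difference, MISS WT minus AF2 WT, was −0.67 ± 0.20 for Dusp6 (SE, adjusted p = 0.0338) and 0.62 ± 0.19 for Dusp14 (SE, adjusted p = 0.0346), so 1 was higher and 1 lower, beside 6.39% and 3.11% of all genes. Of all called genes 67.3% were higher, and 49% with quantile normalization and 51.5% in the series matrix, and the median over all genes was 0.11. Within the slides the difference ran from −0.96 to −0.17 for Dusp6 and from 0.09 to 0.99 for Dusp14. Both calls were fragile. Dusp6 was called in 9 of the 16 fits that left out 1 of these arrays, and Dusp14 in 8. Dusp6 was lost without AF2 WT PLB replicate 3 or 4, AF2 WT E2 replicate 1, 2 or 3, MISS WT PLB replicate 2 or MISS WT E2 replicate 3, at −0.67 to −0.56 and adjusted p = 0.0526 to 0.0777. Dusp14 was lost without AF2 WT PLB or AF2 WT E2 replicate 1 or 2, MISS WT PLB replicate 1, 3 or 4 or MISS WT E2 replicate 3, at 0.52 to 0.60 and adjusted p = 0.0568 to 0.0801. Without the MISS WT PLB array that stood apart, Dusp6 gave −0.56 and adjusted p = 0.0736, while Dusp14 was called, at 0.81 and adjusted p = 0.000441. Dusp14 was lost with quantile normalization, median scaling and the matrix of the authors, at adjusted p = 0.0667, 0.0783 and 0.114. In a fit of these 4 groups alone neither was called, at adjusted p = 0.0884 and 0.124.

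Smooth muscle markers are given beside Dusp14. Their response to E2 differed between the wild types by a median of 0.62 over 10 markers, of which 1 was called. With E2, 0 of the 10 rose and 1 fell in AF2 WT (median 0.08), 7 rose and 1 fell in MISS WT (0.53), and 6 rose and 1 fell in MISS KO (0.59). In AF2 KO limma called 0 of the 10 (median −0.40). Their summed level was 762 to 1080 in AF2 WT PLB and 824 to 1190 in AF2 WT E2, 726 to 855 and 537 to 789 in AF2 KO, 622 to 1370 and 971 to 1390 in MISS WT, and 547 to 824 and 908 to 1190 in MISS KO. Across the 31 arrays r of Dusp14 with their mean log2 level was 0.42, and within groups 0.60. The value within groups leans on the MISS WT PLB array that stood apart. There Dusp14 was −0.52 and the mean marker level 5.53, against 4.17 to 4.62 on the other arrays of that group. No r without this array was computed. Such values were not particular to Dusp14. Within groups smooth muscle markers gave 0.61 with Dusp2, 0.57 with Dusp10 and 0.51 with Dusp6, and −0.23 to 0.33 with the remaining members. Macrophage markers gave 0.50 with Dusp14 over the arrays and 0.33 within groups. The part of smooth muscle in the Dusp14 differences was not tested.

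**Figure D4:**
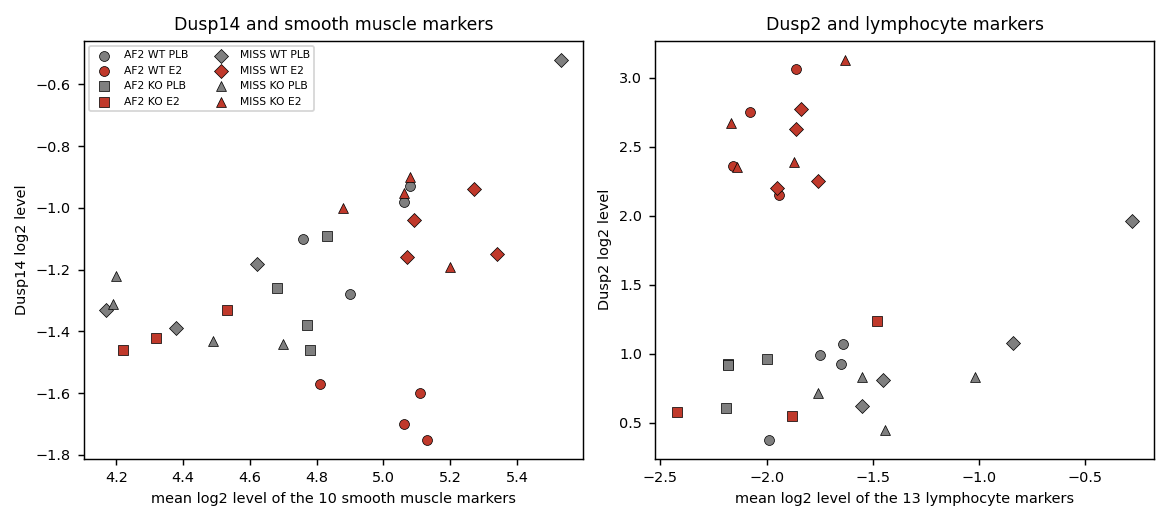
Level of Dusp14 against the mean log2 level of 10 smooth muscle markers, and of Dusp2 against that of 13 lymphocyte markers, 1 point per array, with shape for genotype and colour for treatment (grey placebo, red E2). The MISS WT PLB array on slide 2 lies at the far right of both panels, and the AF2 WT E2 arrays have the lowest Dusp14 levels.

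Under placebo, 0 of the 10 genes were called between genotypes by limma. In AF2 KO against AF2 WT, 1 gene, Dusp5, had an unadjusted p under 0.05, with a difference of 0.77 ± 0.30 (SE), adjusted p = 0.113 and no overlap, beside 3.37% of all genes called higher and 5.67% lower. With quantile normalization it was 1.21 and called, adjusted p = 0.0103. In MISS KO against MISS WT, 0 had an unadjusted p under 0.05, beside 0.399% and 0.451% of all genes. For MISS WT against AF2 WT it was also 0, beside 3.04% and 8.61%, with the largest difference in Dusp5, 0.61 ± 0.30 (SE, adjusted p = 0.22). That became 1.04 and called with quantile normalization, adjusted p = 0.0233. For 8 of the 10 genes the 95% confidence interval lay inside a 2-fold difference in each of the 3 placebo comparisons, the others being Dusp5 and Spry4.

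Ranked by mean level, the groups fell into an E2-responding set and the rest for most members. For Dusp2, Dusp5 and Spry1 the 3 responding E2 groups were apart from all other groups by gaps of 1.34, 1.58 and 0.68 between neighbouring means, with no overlap of arrays across the gap, and neighbours on either side overlapped. Dusp1 had such a gap of 0.63 and Dusp10 of 0.77. In Dusp6 the order under E2 was AF2 WT, MISS WT and MISS KO, and the arrays of MISS WT and MISS KO did not overlap, 0.28 apart, though the lowest MISS KO E2 array was below the highest placebo array. In Dusp14 the order followed neither treatment nor genotype, and AF2 WT E2 was the lowest group, 0.25 below its neighbour and without overlap.

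Of the other 4 MAP kinase phosphatases, 3 rose with E2 in AF2 WT. The lists of other genes, like the members, were chosen with earlier results of these data known. In AF2 WT, Dusp8 and Dusp16, which act on JNK and p38, gave 2.75 ± 0.36 (SE, adjusted p = 2.08e-07) and 0.00 ± 0.14 (SE), and the ERK phosphatases Dusp9 and Dusp7 gave 2.25 ± 0.26 and 1.21 ± 0.10 (SE). Dusp8, Dusp9 and Dusp7 also rose in MISS WT, by 2.45, 2.29 and 1.07, and in MISS KO, by 2.87, 2.75 and 1.21. In AF2 KO 0 of 4 were called, with 0 at an unadjusted p under 0.05, and the response differences of AF2 KO were −3.35, −2.64 and −1.28. Of 13 atypical dual-specificity phosphatases tested, 4 rose and 5 fell in AF2 WT, or 30.8% and 38.5%, which is near the 27.6% and 30.1% of all genes. Dusp26 fell by 2.72, Dusp23 by 1.85 and Dusp19 by 1.39, and Dusp15 rose by 0.93. The other called genes, named after their values were seen, were Styx, Dusp11 and Dusp12, which rose, and Dusp28 and Dusp22, which fell. Dusp26 gave the largest difference of the list in AF2 KO, 3.00 ± 0.25 (SE, adjusted p = 3.58e-10), and it fell more in MISS WT, by 4.30, than in AF2 WT (difference −1.58 ± 0.24, SE, adjusted p = 0.000171).

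Of 15 other inhibitors of receptor tyrosine kinase signalling, 10 rose and 4 fell in AF2 WT, or 66.7% and 26.7%, against 27.6% and 30.1% of all genes. Socs3 and Socs2, which curb cytokine and growth hormone receptors, rose by 4.69 and 2.14, Errfi1, an inhibitor of the EGF receptor, by 2.98, and the Sprouty relative Spred3 by 2.32. The 4 that fell, named after their values were seen, were Cblb, Il17rd, Spred2 and Lrig3, at −1.27, −0.73, −0.72 and −0.69. The Sprouty relatives and Sprouty genes thus held members that rose and members that fell. Socs3 had the largest difference in AF2 KO, −4.74 ± 0.21 (SE, adjusted p = 2.84e-15). Upstream, of 18 growth factor ligands, 10 rose and 6 fell (55.6% and 33.3%), with 3.97 for Vegfa, 2.87 for Igf1, −2.84 for Fgf10 and −2.63 for Hgf. Of 15 receptor tyrosine kinases, 3 rose and 8 fell (20% and 53.3%), with 1.94 for Fgfr3, 1.12 for Kdr, −1.30 for Pdgfra and −1.16 for Igf1r, and the third that rose was Flt1 (named after its value was seen). Pdgfra is also a stroma marker and Kdr an endothelium marker.

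Within the cascades, 15 of 25 ERK cascade genes rose and 3 fell in AF2 WT, or 60% and 12%, against 27.6% and 30.1% of all genes. The scaffold Ksr1 rose by 2.22, the ERK kinase Map2k1 by 1.87 and Rras2 by 1.63, the adaptor Gab1 fell by 1.99, and the other 2 that fell, named after their values were seen, were Mapk3 and Araf. The list counts Hras and Hras1, which are names of the same gene on different probes, as 2. Of 16 genes of the p38 and JNK cascades 7 rose and 2 fell (43.8% and 12.5%), with 1.82 for Mapkapk2, 1.16 for Map3k7, 0.98 for Map2k4 and −1.43 for Map2k6, and Mapk10 fell as well. Of 21 ERK target genes 14 rose and 4 fell (66.7% and 19%). The AP-1 genes Fosl1 and Fos rose by 4.46 and 3.47, Phlda1 by 3.10 and Ier2 by 3.02, while Etv1, Epha4, Etv5 and Hmga2 fell (named after their values were seen). Over the 127 genes of the 8 lists, 66 rose and 32 fell in AF2 WT (52% and 25.2%), 70 and 37 in MISS WT (55.1% and 29.1%, against 35.1% and 27.1% of all genes) and 65 and 37 in MISS KO (51.2% and 29.1%, against 30.1% and 27.2%). The shares that fell are near those of all genes. In AF2 KO 1 was called, Igf1, which fell by 0.74 (adjusted p = 0.00258), and 14 had an unadjusted p under 0.05. The difference between MISS KO and MISS WT was called for 1 of the 127, the p38 target kinase Mapkapk2, at −0.76 ± 0.17 (SE, adjusted p = 0.0201).

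**Figure D5:**
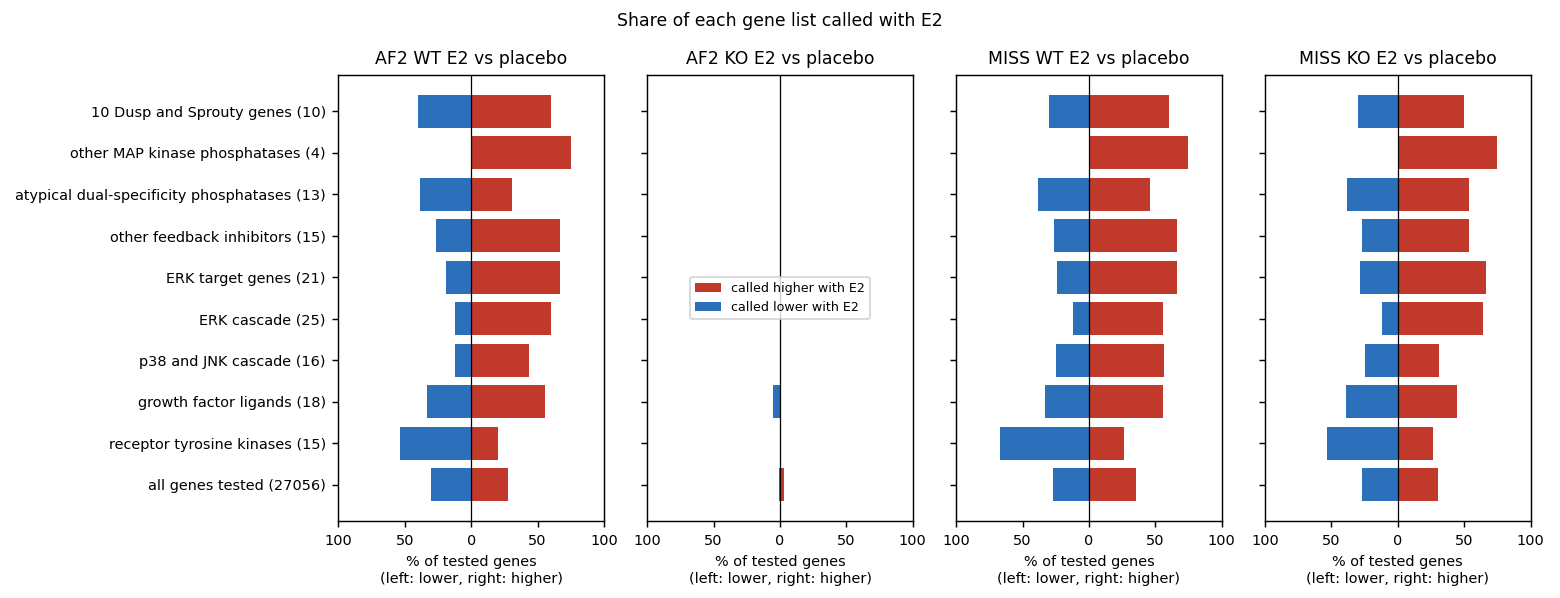
Share of the tested genes of each list called higher (right, red) or lower (left, blue) with E2 (x axis, percent), in AF2 WT, AF2 KO, MISS WT and MISS KO, with the number of genes tested in parentheses and all 27056 genes in the last row. In AF2 KO the bars are near 0 for every list, with 1 growth factor ligand, Igf1, called lower.

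Among all tested genes, those whose levels were most like a member's over the 31 arrays were described by Pearson's r, and the arrays share groups and slides. For Dusp1 they were Sik1 (0.931), Ccn1 (0.921) and Ankrd13a (0.914), and within groups r was 0.84 with Sik1 and 0.75 with Ccn1. For Dusp2 they were Gm5637 (0.965), Shkbp1 (0.963) and Rcc2 (0.962), and for Dusp5 Adamts2 (0.957), Ndufs1 (0.955) and Ensa (0.954). Dusp6 was most like Fgfrl1 (0.937), Syn2 (0.937) and Gnat1 (0.934), and Spry1 most like Phldb2 (0.954) and Asap2 (0.953). Dusp4 was most like Dnah7a (0.931), Dusp10 most like Tppp (0.924), and Spry2 most like Xbp1 (0.924) and Fgf22 (0.922). Dusp14 had no gene as near, with 0.754 for Prune2, 0.75 for Filip1l and 0.733 for Scn3a. For the named genes other than Sik1 and Ccn1, r within groups ran from 0.31 (Syn2 with Dusp6) to 0.83 (Dnah7a with Dusp4). Between members, r over the arrays was 0.91 for Dusp2 and Dusp5, 0.86 for Dusp2 and Dusp6, and −0.85 for Dusp6 and Spry1. Dusp14 stayed within −0.20 to 0.12 with each of the other 9. Within groups the named pairs gave 0.43, 0.58 and −0.10, and Dusp14 ran from −0.27 with Spry2 to 0.53 with Dusp10.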

How the data were processed

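Uterine RNA was hybridised to 1-colour (Cy3) Agilent arrays, and the submitters' processing notes name Agilent Feature Extraction 10.10.1.1 and limma as tools of the authors. Per the file headers, the deposited processed signal is an intensity with background and spatial trend removed. Values in the series matrix that the authors deposited are log2, for 43753 probes with column medians of 7.56, and their normalization is not given in the sources used here. They correlated at 0.979 to 0.989 with the log2 processed signal of the same array. Their centring between arrays beyond equal medians stays unknown.

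Outlier spots among 59305 non-control spots were set missing, spots of a probe averaged as log2 intensity, and the 75th percentile of the array subtracted. A probe was tested if each array of some group had it well above background, which left 40332, and a gene was its brightest such probe. Of all probes, 27235 were named through a RefSeq table. Probe positions are those of the files (mm9). One limma 3.58.1 fit (lmFit, eBayes, R 4.3.3) over all 8 groups gave 10 contrasts, with 23 residual and 2.38 prior degrees of freedom. The procedure was tested on simulated data. Contrasts of a line share arrays. Samples are named by different animal numbers, and p-values measure the spread between these samples. Precision is limited by how many arrays there are.

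The members and lists were chosen with earlier results of these data known. Named were all 10 members, from each list every gene where it had 4 or fewer and otherwise the 4 called genes with the largest change in AF2 WT and the largest called response difference, and up to 3 genes most like each member. Features without a gene symbol were left out of the likeness, which leaves Spry4 without one. Alternatives were normexp (offset 50), quantile and median scaling, the series matrix, other filters, the mean of probes, slide as a block, own groups only, values within slides, and leaving out each array. Not tested for want of a probe above background were Dusp21, Dusp27, Spry3, Egr3, Areg and Ereg.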

Additional observations from a re-analysis of the deposited data

Results flagged for a closer look

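Of 70 groups of 4 arrays checked for a sample far from the others, 3 had one, and chance gives about 1 in 20. The Dusp1 level of MISS KO E2 replicate 4 was 2.30, and the next was 1.63. The Dusp2 level of AF2 KO PLB replicate 4 was 0.61, and the next was 0.92. The Dusp6 level of MISS WT PLB replicate 2, the array with high smooth muscle and lymphocyte markers, was 3.20, and the next was 2.80.

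The E2 response differed between AF2 KO and AF2 WT, by the test of the difference itself, for 9 genes: by −3.72 for Dusp5, −3.04 for Spry4, −1.80 for Dusp2, −1.21 for Dusp6, −1.07 for Dusp1, 0.47 for Dusp14, 0.78 for Spry1, 0.91 for Dusp4 and 0.94 for Dusp10. The sizes for Dusp5 and Spry4 are uncertain, since most arrays of AF2 WT PLB and AF2 KO E2 were not well above background for them, and with normexp that of Spry4 was −0.44 and not called. It differed between MISS WT and AF2 WT by −0.67 for Dusp6 and 0.62 for Dusp14.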

How the results depend on the processing

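Each change of a member was recomputed under 880 combinations of gene, comparison and setting, of which 848 kept their direction and side of the threshold, 18 lost the call and 14 gained it. With 1 array left out, 969 of 1020 did, 46 lost the call and 5 gained it. No called value changed sign in either set, and 21 and 47 values that were never called did. With no filter, the strictest filter, the mean of probes and own groups only, the log2 change of a member stays the same by construction. Only its adjusted p can move there, so these settings say nothing about direction. Within single slides, the AF2 KO minus AF2 WT difference reversed for Dusp14 on slide 3 (−0.01) and for Spry1 on slide 1 (−0.08), and the uncalled difference of Spry2 was 0.36 on slide 4. With quantile normalization, 1 gene in place of 0 (Dusp5) was called in AF2 KO, in AF2 KO against AF2 WT under placebo and in MISS WT against AF2 WT under placebo. The count for MISS WT minus AF2 WT responses, 2, was 1 with quantile normalization, median scaling and the series matrix, 0 in a fit of its own groups, and 0 to 2 with 1 array left out. The cause was not tested. Each member has 1 probe, so probe choice gave no further value, and the strictest filter leaves out Dusp5 and Spry4. Replicate numbers come from accession order and pair no samples, so arrays were paired by slide alone, as a block and within slides. The signal of Spry4, and of Dusp5 under placebo, is limited by background.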
